A study of Mus musculus with 12 samples.

Results

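Astrocytes grown from midbrain were compared with astrocytes grown from cortex after 4 weeks of a short hairpin RNA against PTB (shPTB) in neuronal differentiation medium. The comparison used 4 of the 12 libraries of the series, chosen by their labels: Midbrain Astrocyte_shPTB_4w, replicates 1 and 2, and Cortical Astrocyte_shPTB_4w, replicates 1 and 2. The other 8 libraries were 2 of each region after 2 weeks of shPTB in that medium (shPTB_2w) and 2 of each region as mock cultures in growth medium, all from C57BL/6 mice. Both 4-week groups carried the hairpin and the differentiation medium, and as the medium differed between mock and shPTB cultures too, the effects of hairpin and medium cannot be told apart. The labels call the cells astrocytes throughout, and give no age, purity, number of animals or delivery vector. Whether the replicates came from separate cultures or animals is not stated, and the p-values therefore reflect library-to-library spread, which may be technical.

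PTB, encoded by Ptbp1, binds RNA and in non-neuronal cells holds back neuronal exons and targets of neuronal microRNAs, and its loss was examined in the series as a way to turn astrocytes into neurons. Astrocytes keep marks of the brain region in which they arose. Transcription factors that pattern the embryonic neural tube, such as LHX2 in the forebrain and OTX2 and EN1 around the midbrain, often stay active in glia of that region. The comparison asks what differs between the regions' cultures once both have been through 4 weeks of shPTB.

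The 4 libraries held 8843602 and 9048543 reads in midbrain and 7958229 and 7666778 reads in cortex. Mitochondrially encoded transcripts (37 genes) made up 36.4 and 37.2% of the midbrain reads, against 47.7 and 48.3% of the cortex reads. Levels are given as CPM, read counts scaled to a common library size after a trimmed-mean (TMM) correction for composition, and 3 reads correspond to 0.402 to 0.414 CPM in midbrain and 0.549 to 0.576 CPM in cortex. Ptbp1, the hairpin's target, had 169 and 155 CPM in midbrain and 89.2 and 90.5 CPM in cortex at 4 weeks, against 208 and 249.98 CPM in midbrain mock and 173 and 251 CPM in cortex mock. Its 4-week region difference (log2 fold change 0.85 ± 0.21 (SE), edgeR adjusted p = 0.0276) was not called with any 1 of the 4 libraries left out (adjusted p 0.125 to 0.198). The change of Ptbp1 from mock within each region was not tested, and an equal extent of depletion in the regions is not shown. Exons of Ptbp1 also overlap genes on the opposite strand, and the strand of counting is not stated. The 35 listed astrocyte markers summed to 55244 and 52649 CPM in midbrain and 48805 and 48498 CPM in cortex. The 33 listed pan-neuronal markers summed to 3819 and 3710 CPM in midbrain and 6200 and 6184 CPM in cortex. Such sums do not measure the purity of the cultures.

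More genes were higher than lower in midbrain. Of 14607 genes tested with edgeR's quasi-likelihood test, 1167 (7.99%) differed at an adjusted p under 0.05, with 800 higher in midbrain (5.48%) and 367 lower (2.51%). At least a 2-fold difference was fitted for 718 of the higher and 256 of the lower genes. The median log2 fold change (midbrain over cortex) of all tested genes was -0.01. Scaling to total reads in place of TMM moved that median to 0.25 and the calls to 1270 higher and 196 lower, so values below are relative to the TMM scale.

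**Figure D1:**
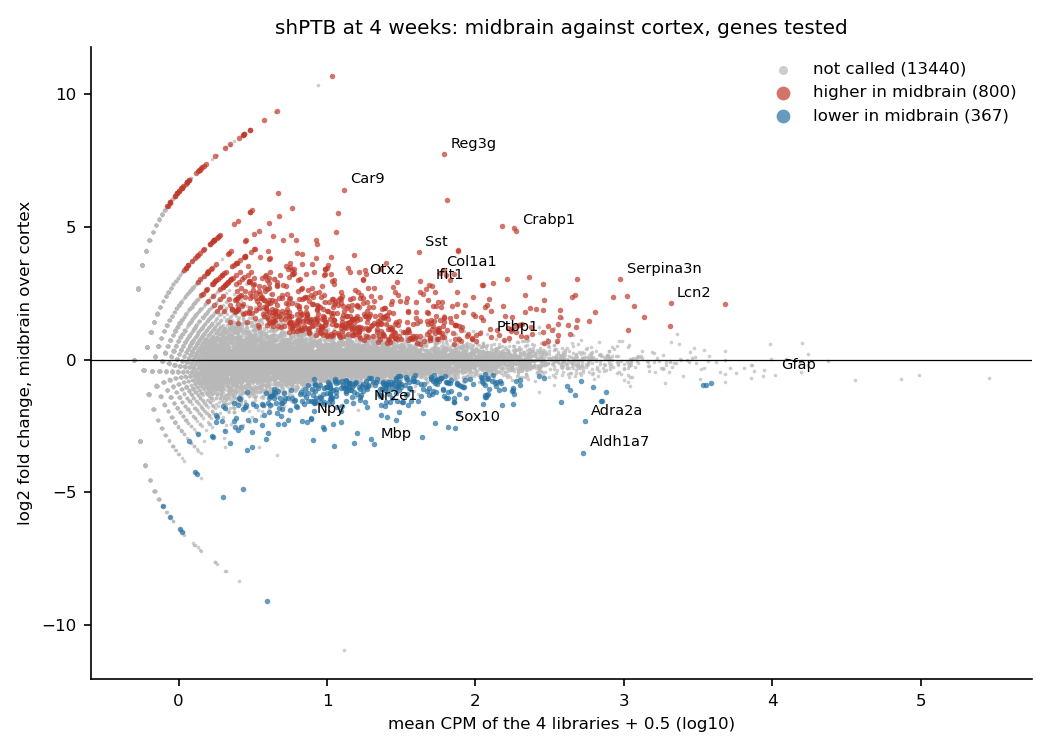
Log2 fold change of midbrain over cortex at 4 weeks of shPTB (y) against the mean CPM of the 4 libraries on a log10 axis with 0.5 CPM added (x), 1 point for each of 14607 genes. The 800 genes called higher in midbrain are red, the 367 called lower are blue and the 13440 not called are grey; the arcs at the left are genes with 0 or few reads in a group, whose fitted values depend on the prior count.

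Each group had 2 libraries, and all 6 groups shared 1 estimate of the spread. Leaving out 1 of the 4 libraries left 442 calls without cortex replicate 1, 464 without cortex replicate 2, 516 without midbrain replicate 1 and 505 without midbrain replicate 2; of these, 431, 450, 508 and 497 were calls of the full fit, all in the same direction. The 4 mock libraries lay further apart than the shPTB libraries, and a fit without them, chosen after seeing the data, called 3703 of 12401 genes (29.9%), with 1883 higher and 1820 lower, and 1147 of the 1167 among them. A gene named below without a library beside it kept its call with each of the 4 libraries left out in turn. Where leaving out a library ended the call, the library and the adjusted p without it follow.

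Where called, most listed midbrain and hindbrain patterning factors were higher in midbrain, and most listed telencephalic factors were lower. Of 43 listed midbrain and hindbrain factors, 23 could be tested, 10 were higher and 1 was lower in midbrain, with a median log2 fold change of 0.91. Of 35 listed telencephalic factors, 26 could be tested, 8 were lower and 1 was higher, with a median of -0.44. Over all tested genes 5.48% were higher and 2.51% lower. The sum of the telencephalic list was nonetheless higher in midbrain, 1367 and 1445 CPM against 1175 and 1166 CPM in cortex, with the abundant Six3 included. Its 9 calls became 2 with a length offset and 14 without the mock libraries. Genes of the first list including Otx2 and Zic4, and Nr2e1 of the second, were called with each of the 4 libraries left out in turn.

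Otx2, a homeobox factor of the forebrain and midbrain (ENSMUSG00000021848.16, chr14:48657677-48673819, minus strand, GRCm38), had 29.4 and 30.4 CPM in midbrain against 3.30 and 4.23 CPM in cortex. It was 7.94-fold higher in midbrain (log2 fold change 2.99 ± 0.25, adjusted p = 6.71e-05), with the libraries of the regions far apart. Its exons overlap those of Otx2os1 on the opposite strand. Zic4, a zinc-finger factor of the neural midline, had 13.8 and 9.24 CPM in midbrain against 2.56 and 1.92 CPM in cortex (2.35 ± 0.36, adjusted p = 0.00216), and overlaps Zic1 on the opposite strand. The groups overlapped in neither gene, as in 58.9% of all tested genes. Lack of overlap was also part of the rule for naming list genes.

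Among forebrain factors, Nr2e1 (Tlx), a nuclear receptor of neural stem cells, had 8.01 and 8.44 CPM in midbrain against 26.9 and 29.4 CPM in cortex, 3.42-fold lower in midbrain (-1.77 ± 0.19, adjusted p = 0.000225). Lhx2, a cortical selector gene, had 9.81 and 11.8 CPM in midbrain against 20.9 and 18.4 CPM in cortex (-0.86 ± 0.21, adjusted p = 0.0301), a call lost without any 1 of the 4 libraries (0.109 to 0.248). The exception to the direction of its list was Six3, a factor of the anterior forebrain and eye field, with 952 and 1029 CPM in midbrain against 287 and 284 CPM in cortex (1.79 ± 0.30, adjusted p = 0.00391). Six3 lost its call without cortex replicate 1 (0.0616) or cortex replicate 2 (0.0629), and overlaps Six3os1 on the opposite strand. Several defining factors were not called: En1 had 10.5 and 8.44 CPM in midbrain against 5.86 and 5.76 CPM in cortex (0.70 ± 0.39, adjusted p = 0.369), and Emx2 had 7.74 and 8.57 CPM against 10.1 and 10.95 CPM (-0.37 ± 0.23, adjusted p = 0.439). The 22 Hox genes listed had too few reads to be tested.

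**Figure D2:**
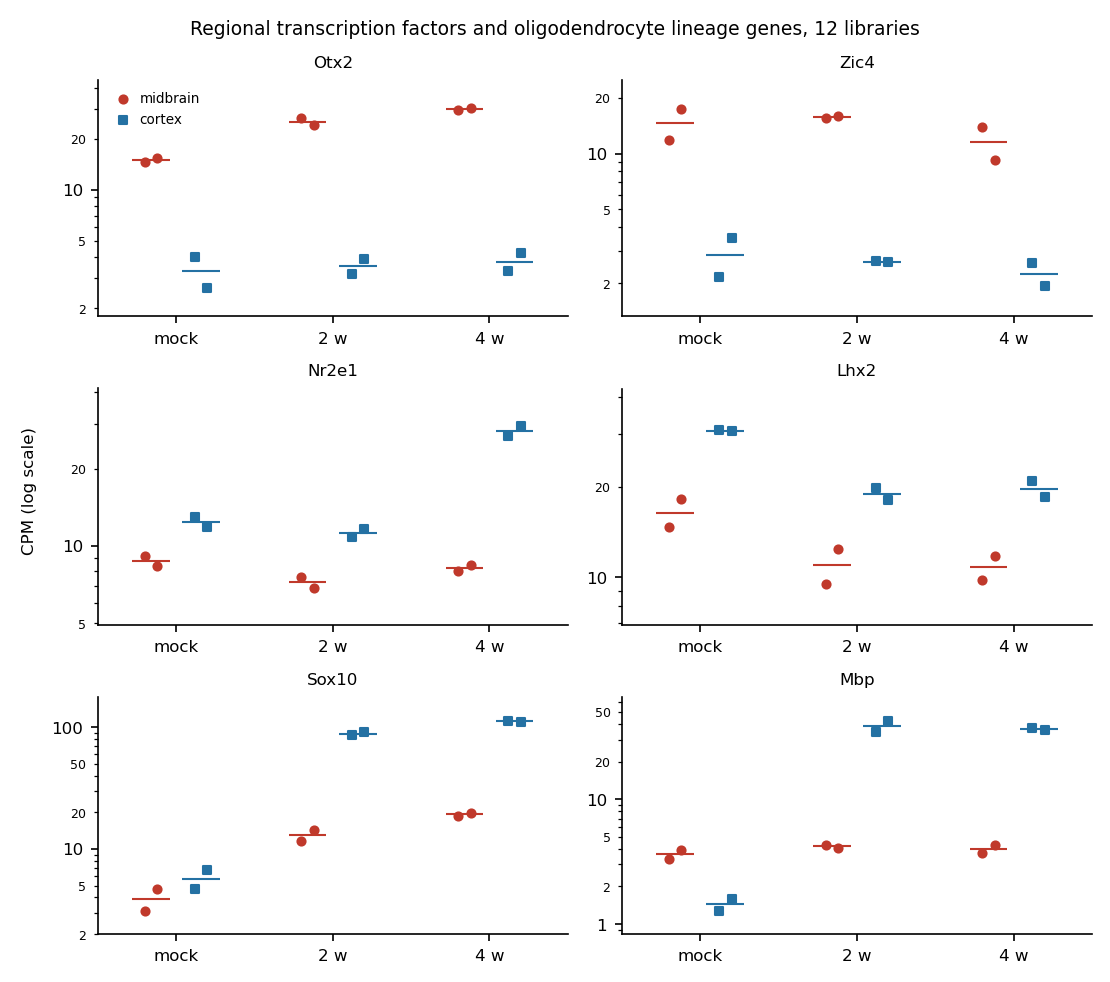
CPM in each library (log axis) of 2 regional factors higher in midbrain at 4 weeks (Otx2, Zic4), 2 lower (Nr2e1, Lhx2) and 2 oligodendrocyte genes (Sox10, Mbp) in mock, 2-week and 4-week cultures; circles are midbrain libraries, squares cortex libraries and bars the mean of 2 libraries. Both midbrain libraries of Otx2 lay above both cortex libraries in every state (means 15.03 against 3.32 CPM in mock and 29.9 against 3.76 CPM at 4 weeks), whereas Sox10 averaged 3.89 against 5.67 CPM in mock and 19.2 against 111 CPM at 4 weeks.

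Genes of the oligodendrocyte lineage were lower in midbrain where called, against a share of 2.51% lower and 5.48% higher over all tested genes. Of 26 listed, 17 could be tested and 7 were lower, none higher, with a median log2 fold change of -1.31, and 5 of the 7 kept their call through every library left out. The 26 genes summed to 301 and 288 CPM in midbrain, with 8 members at 0, and to 561 and 542 CPM in cortex, with 2 at 0. In these bulk libraries, fewer cells of a type and less RNA per cell cannot be told apart.

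Sox10, the lineage's defining transcription factor (ENSMUSG00000033006.10, chr15:79154908-79165240, minus strand, GRCm38), had 18.8 and 19.6 CPM in midbrain against 112 and 110.3 CPM in cortex. That was 5.81-fold lower in midbrain (-2.54 ± 0.23, adjusted p = 0.000103). Myelin genes followed the same direction: Mbp, the major basic protein of myelin, had 3.73 and 4.29 CPM against 37.4 and 35.6 CPM (-3.18 ± 0.22, adjusted p = 2.82e-05). Mag, an adhesion protein of myelin, had 1.66 and 2.41 CPM in midbrain against 20.7 and 18.1 CPM in cortex (-3.24 ± 0.46, adjusted p = 0.0014). Klk6, a protease of oligodendrocytes, was 7.88-fold lower in midbrain. The early lineage gene Olig2 was not called, with 4.56 and 5.09 CPM in midbrain against 5.68 and 6.73 CPM in cortex (-0.36 ± 0.31, adjusted p = 0.602), and Cnp, the most abundant of the listed genes, had 222 and 208 CPM against 253 and 243 CPM (-0.20 ± 0.17, adjusted p = 0.599).

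Markers of cilia, choroid plexus and connective tissue ran the other way. Lists share genes: Otx2 also counts among the choroid plexus and dopaminergic genes, and Aldh1a2, Col1a1 and Timp1 among several groups. All 19 testable genes of 22 ependymal and choroid plexus markers had a positive log2 fold change (median 2.40). Of these, 10 were higher and none lower, beside 5.48% and 2.51% of all tested genes. The list summed to 205 and 194 CPM in midbrain, with no member at 0, and to 48.9 and 52.3 CPM in cortex, with 2 at 0. Rsph1, of the radial spokes of motile cilia, had 27.1 and 29.2 CPM in midbrain against 9.71 and 8.46 CPM in cortex (1.63 ± 0.20, adjusted p = 0.000591), and Rsph4a and Enkur, also of motile cilia, were 4.89-fold and 6.79-fold higher in midbrain; the log2 fold change of Enkur, 2.76, was 2.12 without cortex replicate 1 and 3.90 without cortex replicate 2. Ttr, the thyroid hormone carrier that choroid plexus secretes, had 32.7 and 31.9 CPM against 6.41 and 5.76 CPM (2.40 ± 0.22, adjusted p = 0.000113). The water channel Aqp1 had 84 reads in midbrain and 2 in cortex, a ratio of 30.5 (95% counting interval 8.17 to 256). Foxj1, the master regulator of motile cilia, was not called (0.42, adjusted p = 0.749).

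Of 28 fibroblast, mural and meningeal markers, 24 could be tested; 10 were higher, none lower, and the median was 1.39 (1.26 with genes at 0 in a group set to their bound). Their sum was 3993 and 3808 CPM in midbrain and 2286 and 2282 CPM in cortex, each with 3 members at 0. Kcnj8, a potassium channel subunit of pericytes, had 74 reads in midbrain and 0 in cortex, at least 17.9-fold higher against 3 reads over the cortex group. Endothelial markers summed to 32.3 and 33.2 CPM in midbrain and 39.6 and 37.9 CPM in cortex; 1 of 9 tested was called, and the defining gene Cldn5 had too few reads to test. Microglial and myeloid genes summed to 156 and 159 CPM in midbrain and 155 and 154 CPM in cortex. Of 22 tested, 3 were higher and 3 lower, with a median log2 fold change of -0.65 (-0.54 with genes at 0 set to their bound). A positive log2 fold change was fitted for 6 of the 22. For these cell type lists the shares over all tested genes were 5.48% higher and 2.51% lower. Tmem119, a microglial membrane protein, was higher in midbrain (7.46 and 4.42 against 0.733 and 0.576 CPM), whereas the microglial adaptor Tyrobp was lower (3.73 and 2.68 against 12.5 and 11.9 CPM; adjusted p = 0.00348, 0.0567 without midbrain replicate 2). The part of these cell types in the gene groups below was not tested.

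**Figure D3:**
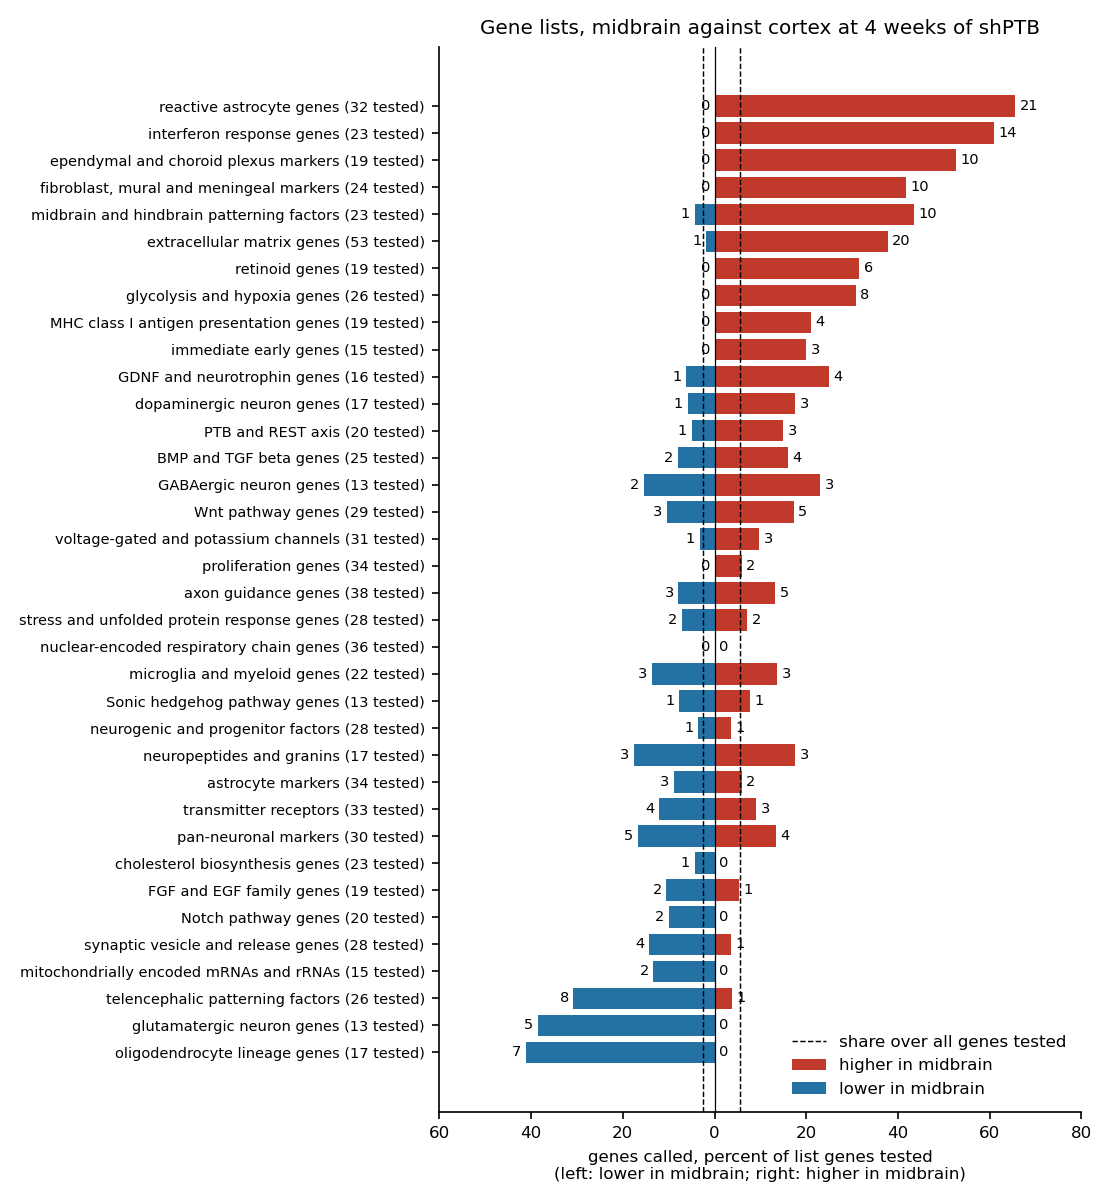
Percent of the tested members of each gene list called higher (right) or lower (left) in midbrain at 4 weeks, for lists with at least 10 tested members; dashed lines mark the shares over all tested genes, 5.48% and 2.51%. The reactive astrocyte (21 of 32), interferon (14 of 23) and ependymal (10 of 19) lists reach furthest right, and the oligodendrocyte (7 of 17) and glutamatergic (5 of 13) lists furthest left.

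Astrocyte markers were called in both directions, and their number depended on the mock libraries. Of 34 tested, 2 were higher and 3 lower in midbrain (beside 7.99% of all genes called). Without the mock libraries 8 were higher and 13 lower of 33 tested, beside 29.9% of all genes, and limma called 18. The list's median was -0.03 on the TMM scale and 0.24 on the total-read scale. The glial filament gene Gfap had 8509.8 and 8014 CPM in midbrain against 12425 and 12606 CPM in cortex (-0.60 ± 0.29, adjusted p = 0.276). Its difference passed the test without the mock libraries (-0.61, adjusted p = 1.26e-11) and with limma (adjusted p = 0.000266). The water channel Aqp4 had 191 and 204 CPM against 196 and 194 CPM (0.02 ± 0.20, adjusted p = 0.985), and the glutamate transporter Slc1a3 108 and 109 CPM against 108 and 100.3 CPM (0.06 ± 0.17, adjusted p = 0.921). Both midbrain libraries lay below both cortex libraries in Gfap, and the groups overlapped in Aqp4 and Slc1a3. Entpd2, an ectonucleotidase, had 7.05 and 5.62 CPM in midbrain against 1.10 and 1.15 CPM in cortex, 5.57-fold higher (2.48 ± 0.29, adjusted p = 0.000483), and 18.9% of the 31-base words of its 3′ end also occur in another gene.

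General neuronal genes were mixed, with medians below 0. Their counts stand beside 5.48% higher and 2.51% lower of all tested genes. Of 30 tested pan-neuronal markers, 4 were higher and 5 lower in midbrain (median -0.49), and of 28 tested synaptic vesicle genes, 1 was higher and 4 lower (median -0.49). Tubb3, the neuronal beta tubulin, had 4.42 and 3.08 CPM in midbrain against 8.24 and 6.53 CPM in cortex (-0.98 ± 0.34, adjusted p = 0.121), and Dcx, of migrating young neurons, had 1.24 and 0.803 CPM against 2.38 and 2.31 CPM (-1.19 ± 0.42, adjusted p = 0.121). Neither was called. Thy1, a surface protein of mature neurons and other cells, took most of the list's reads, with 2488 and 2365 CPM in midbrain against 4762 and 4749 CPM in cortex (-0.97 ± 0.21, adjusted p = 0.015), and was not called without any 1 of the libraries (0.110 to 0.153). Calls kept through every library left out were those of Eno2, the neuronal enolase, with 103 and 94.7 CPM against 40.8 and 34.0 CPM (1.40 ± 0.21, adjusted p = 0.002), and Syt7, a calcium sensor of vesicle release, with 33.8 and 29.7 CPM against 5.49 and 4.42 CPM (2.68 ± 0.22, adjusted p = 5.75e-05).

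Peptides and calcium buffers of interneurons split between the regions. Sst, the peptide somatostatin (ENSMUSG00000004366.4, chr16:23889573-23890958, minus strand, GRCm38), had 73.8 and 81.0 CPM in midbrain against 5.31 and 4.04 CPM in cortex. It was 16.5-fold higher (4.04 ± 0.38, adjusted p = 0.00012). The calcium buffer parvalbumin, Pvalb, had 193 and 190.2 CPM against 48.5 and 43.6 CPM (2.06 ± 0.18, adjusted p = 8.54e-05), and the enkephalin precursor Penk 28.0 and 27.3 CPM against 5.31 and 7.30 CPM (2.13 ± 0.24, adjusted p = 0.000309). Neuropeptide Y, Npy, ran the other way, with 2.49 and 2.54 CPM in midbrain against 11.7 and 12.3 CPM in cortex (-2.25 ± 0.31, adjusted p = 0.0011). Gad1, which makes GABA, was not called, with 16.2 and 17.5 CPM against 15.2 and 14.4 CPM (0.19 ± 0.19, adjusted p = 0.675). Of 13 tested GABAergic genes, 3 were higher and 2 lower, beside 5.48% and 2.51% of all tested genes.

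Glutamatergic genes were lower where called: 5 of 13 tested, none higher, with a median of -0.83. The shares over all tested genes, here and for the dopaminergic list, were 2.51% lower and 5.48% higher. Camk2a, a kinase of excitatory neurons, had 10.9 and 10.2 CPM in midbrain against 35.0 and 33.6 CPM in cortex (-1.70 ± 0.20, adjusted p = 0.000483), and was the member that kept its call through every library left out. The vesicular transporter Slc17a6 had 0 reads in both regions, and Slc17a7 had 2 reads in each. Dopamine synthesis genes were near the floor in both regions: Th had 4 reads in midbrain against 11 in cortex, and Ddc 6 against 2. Of 17 tested dopaminergic genes, 3 were higher and 1 lower; the lower one was Sox6, a factor of substantia nigra neurons and of other neural cells, with 23.2 and 24.0 CPM against 62.3 and 59.8 CPM (-1.37 ± 0.17, adjusted p = 0.000684). Adra2a, the alpha-2A adrenergic receptor, had 178 and 188 CPM in midbrain against 915 and 899 CPM in cortex (-2.31 ± 0.29, adjusted p = 0.000635).

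Interferon-stimulated genes were higher in midbrain. Interferon receptors activate transcription factors that bind the interferon-stimulated response element in the promoters of antiviral genes. Of 28 listed genes, 23 could be tested, 14 were higher (60.9% of them, against 5.48% of all genes) and none lower, with a median log2 fold change of 1.38. The list summed to 578 and 581 CPM in midbrain, with 1 member at 0, against 183 and 197 CPM in cortex, with 4 at 0. With 1 library left out, 6 to 11 of the genes were called, the fewest without cortex replicate 1, and 5 were called in every case: Ifit1, Oasl2, Usp18, Rtp4 and Bst2.

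Ifit1, which binds foreign RNA (ENSMUSG00000034459.8, chr19:34640871-34650009, plus strand, GRCm38), had 83.2 and 86.4 CPM in midbrain against 13.0 and 11.1 CPM in cortex, 7.01-fold higher (2.81 ± 0.19, adjusted p = 2.82e-05). Oasl2, of the oligoadenylate synthetase family, had 23.3 and 26.8 CPM against 2.75 and 2.31 CPM (3.30 ± 0.24, adjusted p = 3.04e-05). Usp18, a feedback inhibitor of the interferon receptor, had 16.2 and 18.6 CPM against 1.65 and 1.54 CPM (3.44 ± 0.43, adjusted p = 0.000635). In all 3 both midbrain libraries lay above both cortex libraries, where 58.9% of all tested genes had groups that did not overlap. Irf7, the factor that amplifies the response, had 16.2 and 17.5 CPM in midbrain against 1.47 and 1.73 CPM in cortex (3.39 ± 0.60, adjusted p = 0.0049), with the call lost without cortex replicate 1 (0.0756) or replicate 2 (0.0626). Of 19 tested genes of MHC class I antigen presentation, 4 were higher (Psmb8, Psme1, Tap1 and H2-D1), none lower, and each of the 4 lost its call without at least 1 library; their highest adjusted p values were 0.104 for Psmb8, 0.0964 for Psme1, 0.239 for Tap1 and 0.1399 for H2-D1.

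The promoters of 2 of the 5 genes are printed to show the response element in the set that moved together, from the RefSeq table for GRCm38.p6 (250 bases before to 50 bases after the start of transcription, on the gene's strand). Capitals mark the core searched, which is GAAA, any 2 bases and GAAA, or on the other strand TTTC, any 2 bases and TTTC; overlapping matches run together.
Ifit1, chr19:34640639-34640938, plus strand: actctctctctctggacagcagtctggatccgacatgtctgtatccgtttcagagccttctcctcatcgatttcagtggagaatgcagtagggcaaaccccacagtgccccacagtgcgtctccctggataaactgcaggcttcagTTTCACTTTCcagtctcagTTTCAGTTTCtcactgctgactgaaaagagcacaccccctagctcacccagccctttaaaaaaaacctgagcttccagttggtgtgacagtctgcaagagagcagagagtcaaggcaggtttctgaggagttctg
Bst2, chr8:71537423-71537722, minus strand: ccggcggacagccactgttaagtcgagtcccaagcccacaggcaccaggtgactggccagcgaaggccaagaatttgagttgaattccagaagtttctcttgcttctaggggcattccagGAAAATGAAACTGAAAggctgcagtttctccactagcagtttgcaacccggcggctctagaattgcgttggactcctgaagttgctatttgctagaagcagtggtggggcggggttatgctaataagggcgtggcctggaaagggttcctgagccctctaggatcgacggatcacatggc
Each window held 2 matches, which in Bst2 overlap. Of the 14 higher genes, 10 had a window in the table and 6 of these held the core (60%), as did 4 of 7 tested genes of the list that were not called (57.1%) and 1079 of 27025 genes in the table (3.99%). The windows of Oasl2 and Irf7 held no match.

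Reactive astrocyte and acute-phase genes showed the largest share of calls among the lists with at least 10 tested members. Over all tested genes 5.48% were higher and 2.51% lower. Reactive astrocytes, which form after injury or inflammation, secrete lipocalin, complement components and protease inhibitors. Of 32 tested, 21 were higher in midbrain and none lower, with a median of 1.36 (1.28 with genes at 0 set to their bound); 10 to 14 were called with 1 library left out, and 9 in every case. Lcn2, the iron-siderophore carrier lipocalin 2, had 3429.5 and 3303 CPM in midbrain against 789 and 749.8 CPM in cortex (2.13 ± 0.21, adjusted p = 0.000163). Serpina3n, a protease inhibitor, had 1681 and 1695 CPM against 212 and 205 CPM (3.02 ± 0.31, adjusted p = 0.000185), and Serping1, which inhibits the first complement component, 26.4 and 31.2 CPM against 2.93 and 2.88 CPM (3.30 ± 0.22, adjusted p = 2.6e-05). The groups did not overlap in any of the 3, as in 58.9% of all tested genes, and the naming rule asked for this. The others called in every case were Cp (10.4-fold), Aspg (8.57-fold), Timp1 (7.98-fold), Fbln5 (5.40-fold), Cd44 (3.59-fold) and Osmr. C3, the central complement component, had 2879.7 and 2913 CPM against 1204 and 1236 CPM (1.25 ± 0.25, adjusted p = 0.0104), a call lost without any 1 library (0.0716 to 0.118).

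**Figure D4:**
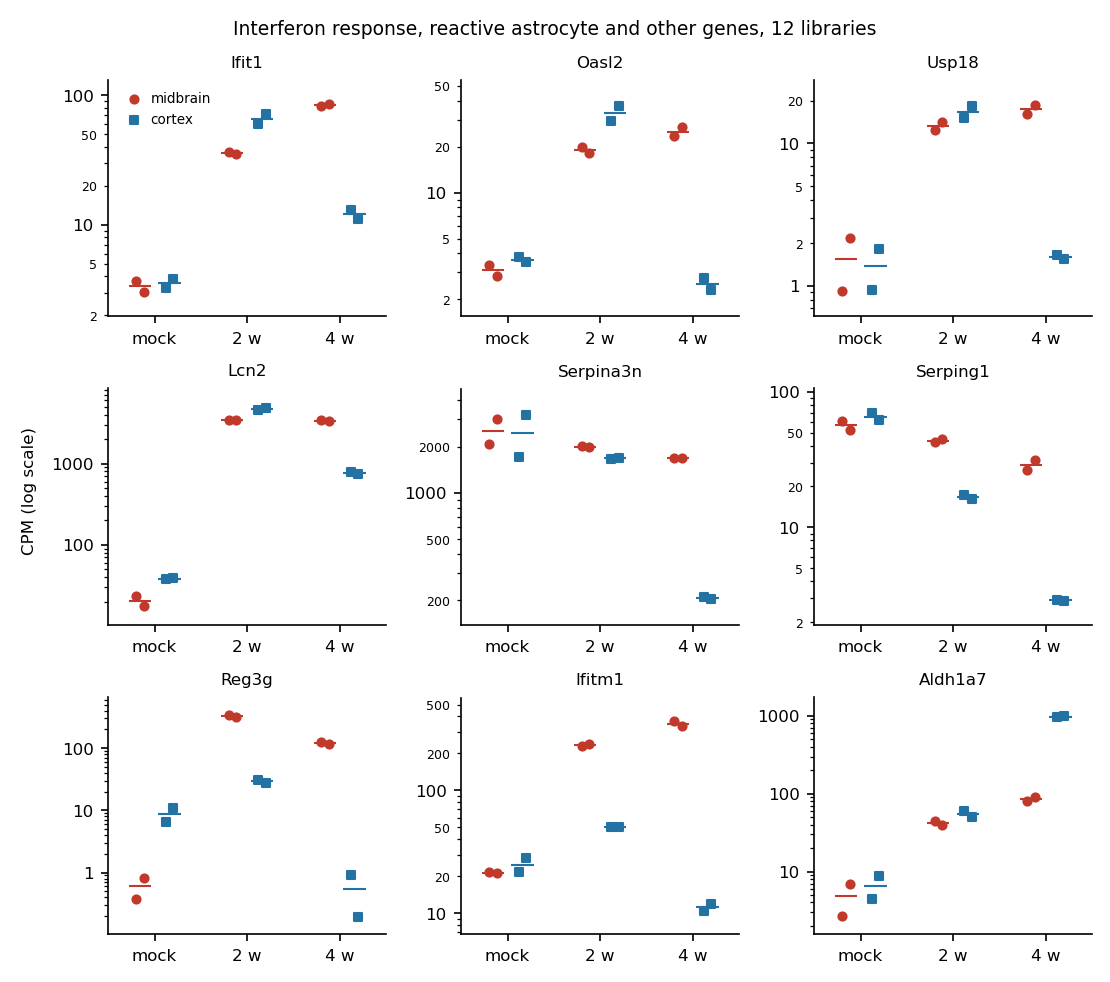
CPM in each library (log axis) of Ifit1, Oasl2 and Usp18 (interferon-stimulated), Lcn2, Serpina3n and Serping1 (reactive), and Reg3g, Ifitm1 and Aldh1a7 in mock, 2-week and 4-week cultures; circles are midbrain libraries, squares cortex libraries and bars the mean of 2 libraries. Ifit1, Oasl2 and Lcn2 were higher in the cortex libraries than in the midbrain libraries at 2 weeks and lower at 4 weeks.

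Extracellular matrix genes were higher in midbrain, among them fibrillar and type VI collagens. The shares over all tested genes were 5.48% higher and 2.51% lower. Of 53 tested, 20 were higher and 1 lower, with a median of 1.48, and 13 of the 20 kept their call through every library left out. Col1a1, the alpha-1 chain of type I collagen, had 104 and 102 CPM in midbrain against 9.71 and 11.7 CPM in cortex, 9.64-fold higher (3.27 ± 0.26, adjusted p = 4.59e-05), and its partner Col1a2 was 7.65-fold higher. Col6a1 had 15.5 and 12.1 CPM against 1.28 and 0.961 CPM (3.60 ± 0.27, adjusted p = 3.04e-05), and Col6a2 was 11.7-fold higher. The abundant matrix glycoprotein Sparc had 806 and 774 CPM against 146 and 149 CPM (2.42 ± 0.19, adjusted p = 3.62e-05). Lox, which crosslinks collagen, had 65 reads in midbrain and 2 in cortex, a ratio of 23.6 (95% counting interval 6.27 to 199), and the laminin chain Lama1 77 reads and 2 reads, a ratio of 27.9 (7.47 to 235). The member that was lower was Tnr, tenascin-R of perineuronal nets, which oligodendrocytes also make, with 4.01 and 7.10 CPM against 20.9 and 16.7 CPM (-1.76 ± 0.30, adjusted p = 0.00389).

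Retinoid genes that differed were higher in midbrain. Crabp1, a cytosolic carrier of retinoic acid (ENSMUSG00000032291.8, chr9:54764748-54773110, plus strand, GRCm38), had 368 and 350.3 CPM in midbrain against 12.3 and 12.7 CPM in cortex, 28.8-fold higher (4.85 ± 0.36, adjusted p = 3.04e-05). Aldh1a2, which makes retinoic acid and is also a meningeal marker, had 31.2 and 28.0 CPM against 7.69 and 7.49 CPM (1.96 ± 0.22, adjusted p = 0.000375). Of 19 tested retinoid genes, 6 were higher and none lower (median 0.53), beside 5.48% and 2.51% of all tested genes. Ttr is also on this list.

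Signalling genes were mixed. The counts in this paragraph stand beside 5.48% higher and 2.51% lower of all tested genes. Of 29 tested Wnt genes, 5 were higher and 3 lower. The ligand Wnt10a had 10.8 and 9.37 CPM in midbrain against 1.10 and 0.769 CPM in cortex (3.41 ± 0.34, adjusted p = 0.000171), whereas Tcf7l1, a repressor of Wnt targets, had 8.15 and 8.97 CPM against 35.0 and 38.4 CPM (-2.10 ± 0.28, adjusted p = 0.000892) and the feedback inhibitor Nkd1 17.5 and 16.3 CPM against 37.0 and 43.8 CPM (-1.25 ± 0.19, adjusted p = 0.00202). Of 19 tested FGF and EGF family genes, 1 was higher and 2 were lower, with a median of 0.40. The lower ones were the growth factor Fgf1 and its receptor Fgfr2. Fgf1 had 17.3 and 17.8 CPM in midbrain against 74.5 and 66.5 CPM in cortex (-2.01 ± 0.20, edgeR adjusted p = 0.000166), and Fgfr2 was 2.48-fold lower in midbrain. Of 16 tested GDNF and neurotrophin genes, 4 were higher and 1 was lower. The lower one was Gfra2, the neurturin receptor, which had 38.5 and 32.3 CPM against 103 and 109 CPM (-1.59 ± 0.19, adjusted p = 0.000531). Igf2, an insulin-like growth factor on that list, had 8.29 and 10.7 CPM in midbrain against 0.366 and 1.15 CPM in cortex on 8 cortex reads. Its log2 fold change of 3.64 ± 0.47 (adjusted p = 0.000781) was 3.03 without cortex replicate 1 and 4.65 without cortex replicate 2, and 100% of its 3′-end words also occur in Gm49394. Among 38 tested axon guidance genes, 5 were higher and 3 lower; Slit2, a repulsive ligand, was 4.61-fold higher in midbrain, and the ephrin receptors Ephb1 and Epha5 were 5.40-fold and 3.04-fold lower. The BMP family held 4 higher and 2 lower genes of 25 tested, and Bmp1, a procollagen protease, was 2.39-fold higher.

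In the full fit, genes of energy metabolism differed at a few points. Of 26 tested glycolysis and hypoxia genes, 8 were higher and none lower, beside 5.48% and 2.51% of all tested genes. Their median was 0.58. Without the mock libraries 16 of these 26 were higher and 2 lower, beside 15.2% and 14.7% of all genes. With limma 15 were called, beside 3174 of all 14607 genes. Car9, a carbonic anhydrase induced by hypoxia, had 22.9 and 26.4 CPM in midbrain against 0.549 and 0 CPM in cortex, with 363 reads and 3 reads, a ratio of 87.7 (95% counting interval 29.8 to 427), and all 3 cortex reads lay in replicate 1. The phosphofructokinase subunits Pfkl and Pfkp were 2.95-fold and 2.19-fold higher, but the lactate dehydrogenase gene Ldha (1.58, adjusted p = 0.0379) lost its call without any 1 library (0.156 to 0.229). All 15 mitochondrially encoded mRNAs and rRNAs had lower CPM in both midbrain libraries than in both cortex libraries, beside 58.9% of all tested genes whose groups did not overlap, and 2 were called, mt-Nd6 (-1.30, adjusted p = 0.0066) and mt-Atp8 (-1.04, adjusted p = 0.0175). The first lost its call without cortex replicate 2 (0.065), midbrain replicate 1 (0.0854) and midbrain replicate 2 (0.0714), and the second without any 1 library (0.105 to 0.150). Without the mock libraries all 15 were called lower, and limma called 14. Of 36 nuclear-encoded respiratory chain genes, edgeR and DESeq2 called 0 and limma 3, with 2 at an unadjusted edgeR p under 0.05, and edgeR without the mock libraries called 7.

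Several of the largest differences over all genes lay outside the lists. Reg3g, an antimicrobial lectin of epithelia, had 128 and 115 CPM in midbrain against 0.916 and 0.192 CPM in cortex, 212-fold higher on 6 cortex reads (7.73 ± 0.47, adjusted p = 1.58e-05). Its log2 fold change was 9.22 without cortex replicate 1 and 7.03 without cortex replicate 2. Ifitm1, an antiviral membrane protein, had 367 and 332 CPM against 10.4 and 11.9 CPM (4.97 ± 0.21, adjusted p = 1.45e-06), and 26.6% of its 3′-end words occur in other genes. Inmt, an amine methyltransferase, was 32.6-fold higher, with 298 and 283 CPM against 8.97 and 8.84 CPM. The cilium gene Odf3b had 153 reads in midbrain and 2 in cortex, a ratio of 55.5 (95% counting interval 15.1 to 462), and Sprr2b 305 reads and 0, at least 73.7-fold higher. In the other direction, Aldh1a7, an aldehyde dehydrogenase, had 81.5 and 91.1 CPM in midbrain against 965 and 987 CPM in cortex, 11.3-fold lower (-3.50 ± 0.39, adjusted p = 0.000322). The chemokine Pf4 was 8.77-fold lower, Pgm5, of the phosphoglucomutase family, 7.48-fold lower, and Actr3b, an actin-nucleating subunit, 6.01-fold lower. Among the most abundant genes, the imprinted gene Nnat had 1784 and 1730.4 CPM in midbrain against 348 and 324 CPM in cortex (2.39 ± 0.24, adjusted p = 0.000166), and the G protein subunit Gnao1 364 and 350.3 CPM against 1023 and 1063 CPM (-1.55 ± 0.22, adjusted p = 0.00153).

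The region difference at 4 weeks was then set against the region difference in mock cultures and at 2 weeks, by a test of the difference between them; both tests use the same 4-week libraries. Against mock, 372 genes (2.55%) had another region difference, 278 with a more positive value at 4 weeks (1.9%) and 94 with a more negative one (0.644%). Same-numbered mock libraries of the 2 regions deviated together (correlation 0.768), and with a replicate term for mock only, chosen after seeing the data, 2277 genes passed, the 372 among them. Against 2 weeks, 60 genes did (0.411%), 53 more positive (0.363%) and 7 more negative (0.0479%). With 1 of the 4-week libraries left out, 138 to 168 genes passed against mock and 3 to 6 against 2 weeks.

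For Otx2 and Zic4, the test called no difference between the region difference at 4 weeks and that in mock; the region difference in mock itself was not tested. Otx2 averaged 15.03 CPM in midbrain mock against 3.32 CPM in cortex mock, and its region difference at 4 weeks was more positive than that in mock by 0.83 ± 0.34 on the log2 scale (adjusted p = 0.311; 0.061 with the replicate term for mock). Zic4 averaged 14.6 against 2.83 CPM in mock, and the difference was -0.03 (adjusted p = 1; 0.99 with the replicate term). Nr2e1 averaged 8.73 against 12.4 CPM in mock. Its region difference was more negative at 4 weeks by -1.27 (edgeR adjusted p = 0.0249), a call lost in 5 of 8 refits with 1 library left out.

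Mbp and Sox10 were lower in midbrain at both shPTB times. Mbp averaged 3.61 CPM in midbrain mock against 1.43 CPM in cortex mock, and 4.19 against 38.4 CPM at 2 weeks; its difference at 4 weeks was more negative than in mock by -4.52 (adjusted p = 7.26e-05; at most 0.001 with 1 library left out). Sox10 averaged 3.89 against 5.67 CPM in mock and 13.0 against 88.0 CPM at 2 weeks. Its difference at 4 weeks was more negative than in mock by -1.999 (edgeR adjusted p = 0.00889), a call lost in 4 of 8 refits with 1 library left out. Against 2 weeks neither was called apart (log2 differences of 0.01 for Mbp and 0.22 for Sox10).

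The summed level of the interferon genes had the opposite order at 2 weeks. Their summed level was 403 and 407 CPM in midbrain against 475 and 484 CPM in cortex at 2 weeks, and 225 and 207 CPM against 227 and 214 CPM in mock. Ifit1 had 36.5 and 35.1 CPM in midbrain against 60.5 and 71.4 CPM in cortex at 2 weeks, so that its region difference was more positive at 4 weeks by 3.69 (adjusted p = 0.000312; 0.00151 to 0.0117 with 1 of 8 libraries left out). Oasl2 changed by 4.10 (adjusted p = 0.000326; 0.00151 to 0.0117), and Tgtp2, an interferon-inducible GTPase gene that shares its whole 3′ end with Tgtp1, by 10.26, a fitted value with 0 reads in cortex at 4 weeks (adjusted p = 0.00196; 0.012 to 0.0287).

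**Figure D5:**
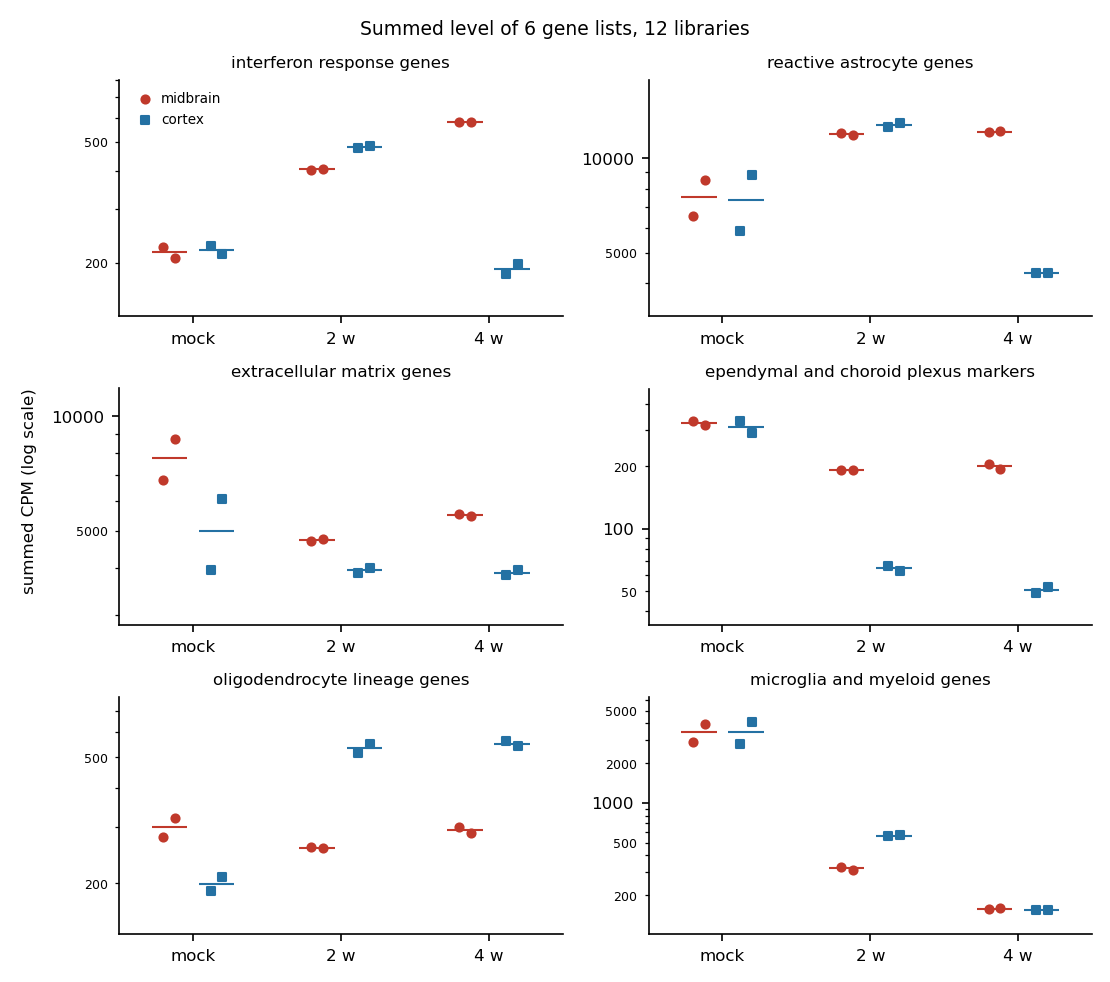
Summed CPM of the members of 6 gene lists (interferon response, reactive astrocyte, extracellular matrix, ependymal and choroid plexus, oligodendrocyte lineage, microglia and myeloid) in each library in mock, 2-week and 4-week cultures; circles are midbrain libraries, squares cortex libraries and bars the mean of 2 libraries. At 4 weeks the reactive list lay near 12104 CPM in midbrain and 4316 CPM in cortex, having lain near 12007 and 12554 CPM at 2 weeks.

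Reactive genes followed a like course. The list summed to 12007 and 11879.8 CPM in midbrain against 12554 and 12939.5 CPM in cortex at 2 weeks, and to 12104 and 12174 CPM against 4316 and 4309 CPM at 4 weeks, so that the cortex sum was lower at 4 weeks than at 2 weeks and the midbrain sum was similar at both times. Lcn2 averaged 3428 CPM in midbrain against 4738 CPM in cortex at 2 weeks. Its region difference was 2.60 more positive at 4 weeks (edgeR adjusted p = 0.00526), a call lost in 7 of 8 refits with 1 library left out. Serpina3n averaged 1997 against 1678 CPM at 2 weeks and 2543 against 2452 CPM in mock. It was called apart from mock by 2.96 (edgeR adjusted p = 0.00314), a call kept in all 8 refits with 1 library left out. From 2 weeks it was called apart by 2.77 (edgeR adjusted p = 0.0222), a call lost in all 8 such refits. Fbln5, an elastic fibre protein on the same list, took another course: it averaged 131 CPM in midbrain mock against 5.07 CPM in cortex mock and its difference at 4 weeks was smaller by -2.26 (adjusted p = 0.000744; up to 0.0115). Aldh1a7 averaged 42.1 against 55.2 CPM at 2 weeks, before its 976 CPM in cortex at 4 weeks (-3.11, adjusted p = 0.0302; 0.149 to 0.217 with 1 library left out).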

How the data were processed

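RNA-seq was run on total RNA of 12 libraries, 2 for each of 6 groups. Per the labels' protocols, complementary DNA was primed with a biotinylated oligonucleotide, captured on streptavidin beads and given a random-primed second strand; no molecular identifiers are described. The submitters' processing notes name Salmon 0.14.1, cutadapt 2.3, genome build mm10 and DESeq2, while the annotation release and strand setting are not given in the sources used here. For each library the deposited files hold Salmon's estimated counts per transcript, and 53.2 to 54.3% of the values above 0 in the 4-week libraries were not whole within 1e-06. The authors' TPM values and effective lengths, as deposited, served for a length offset alone.

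Estimated counts of 140658 transcripts were summed to 54356 genes with GENCODE M21 (0.0556 to 0.0639% of 4-week reads were on unmatched transcripts) and rounded. Genes were kept by edgeR's filterByExpr rule: a level worth about 10 reads in any 2 of the 12 libraries, and 15 reads in total. A gene could thus pass through mock or 2-week libraries alone, and 521 tested genes had 0 reads in a 4-week group. Testing used edgeR 4.0.16 (R 4.3.3, quasi-likelihood test, TMM scaling, 1 coefficient for each of 6 groups). Benjamini-Hochberg adjustment covered all tested genes, with a threshold of 0.05. The fit was first run on simulated counts with known folds, drawn independently for each library. These lacked the shared deviations of same-numbered mock libraries, so they do not test the fit under such deviations. Values after ± are standard errors. Ratios with 1 to 3 reads in a group carry exact 95% counting intervals; these and the 3-read bounds cover counting error only. With 2 libraries a group, an exact permutation test of 1 gene cannot reach the threshold. Uncertain genes were marked from exon overlap and from 31-base words of the last 500 bases shared with other genes.

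Named genes were a fixed set of regional, glial and neuronal genes; up to 4 called members of each list with the largest change, at least 2 CPM and no overlap; the 12 largest rises and falls with at least 10 CPM; the 6 most abundant called genes each way with at least a 1.5-fold change; and 6 genes each way for each difference of region differences. The libraries, the 40 lists and this rule were chosen with earlier results of these data known. Olig2, Cnp, Foxj1 and list members outside the rule, mainly those keeping their call with every library left out, were chosen after their values were seen. Alternatives were other scalings, filters and tools (DESeq2 1.42.0, limma 3.58.1), a length offset, a replicate block, subsets of genes or groups and each library left out. Results for some genes are not reported here.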

Additional observations from a re-analysis of the deposited data

Results flagged for a closer look

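The 12 genes below had the 6 largest values each way, at a mean of at least 10 CPM in their highest group, among 372 called. For each, the region difference (log2, midbrain over cortex) at 4 weeks differed from that in mock cultures by a test of the difference itself. It was more positive at 4 weeks for Sprr2b (13.33), Reg3g (11.56), Glycam1 (7.45), Car9 (7.14), Aqp1 (6.91) and Cbr2 (6.89). It was more negative for D030055H07Rik (-6.56), Wnt8b (-4.88), Mbp (-4.52), Slc13a5 (-4.45), Col22a1 (-3.78) and Kcnip1 (-3.75). With each of the 8 libraries left out in turn, 9 of the 12 stayed called. Wnt8b was not called without cortex 4-week replicate 1 (adjusted p = 0.0639), and Kcnip1 not without midbrain 4-week replicate 1 (0.0727) or cortex 4-week replicate 1 (0.0886). Sprr2b was not called in 5 of 8 refits, and its mock reads all lay in cortex replicate 1, without which its adjusted p was 0.9999. Sprr2b's fitted value is no bound, since it had 0 reads in cortex at 4 weeks. In Cbr2, 42.1% of 3′-end words occur in other genes.

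Another 12 results were chosen by the same rule among 60 genes called against 2 weeks. For each, the region difference at 4 weeks differed from that at 2 weeks. It was more positive for Gm14434 (10.43), Tgtp2 (10.26), Reg3g (4.22), Glycam1 (4.20), Zbp1 (4.13) and Oasl2 (4.10), and more negative for Aldh1a7 (-3.11), Gm44913 (-2.62), Gm22710 (-2.36), Col22a1 (-1.95), Birc6 (-1.75) and Islr (-1.57). Oasl2 and Tgtp2 stayed called with each of 8 libraries left out. Gm14434 was not called without cortex 4-week replicate 1 (adjusted p = 0.0816) or cortex 4-week replicate 2, Gm22710 in 7 of 8 refits (at most 0.0976), and the other 8 in any of the 8, with adjusted p values of at most 0.217 for Aldh1a7 and 0.302 for Birc6. Gm14434, Tgtp2 and Gm22710 share all of their 3′-end words with other genes, and Gm14434 had 0 reads in midbrain at 2 weeks, so its fitted value is no bound.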

How the results depend on the processing

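The count of genes called at 4 weeks (1167) rose to 3174 with limma and library weights, 3681 with the 4-week libraries alone and 3703 without the mock libraries (added after seeing the data). With 1 library left out it ranged from 442 to 516. Total-read scaling put 86.6% of calls on the higher side, against 68.6% with TMM. Against mock (372 called), the count was 754 without a count filter, 164 with the compared groups alone and 2277 with a replicate block in mock only (added after seeing the data), and 138 to 550 with 1 library left out. Against 2 weeks (60 called) it was 134 with total-read scaling, 147 with DESeq2, 1329 with limma, 275 without a filter, 92 with a strict filter, 2240 with the compared groups alone and 3 to 7 with 1 library left out. Of 208 gene results, 36 lost their call under the length offset, 15 under total-read scaling and 6 with DESeq2. Directions turned only for uncalled genes and Sv2c (log2 0.33 with the length offset): Sox9 (0.0041 with total reads, 0.028 with the offset), Map2 (0.056 with total reads), Gja1 (0.24 with total reads, 0.055 with the offset, -0.18 to 0.15 with 1 library left out), Slc1a3 (-0.12 with the offset), Rest (-0.13 with the offset, -0.37 to 0.67 left out), Aqp4 (-0.031 to 0.068 left out) and Rbfox3 (-1.45 to 0.14 left out). The 4-week libraries share only a replicate number (correlation of deviations 0.011; 0.768 in mock); the block gave 1246 calls and changed no named gene's call. Genes of a few reads, such as Th, allow no statement at this depth. The cause of each change was not tested.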

Other observations

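Several gene groups outside the comparisons above held a few calls each in midbrain against cortex at 4 weeks. Of 31 tested voltage-gated and potassium channel genes, 3 were higher and 1 lower, beside 5.48% and 2.51% of all tested genes. Of 33 transmitter receptor genes, 3 were higher and 4 lower, among them Gabrb1, a GABA-A receptor subunit, with 53.9 and 52.0 CPM against 104 and 105 CPM (-0.99 ± 0.15, edgeR adjusted p = 0.00251). Of 15 immediate early genes, 3 were higher; Fos had 23.5 and 22.1 CPM in midbrain against 5.31 and 4.04 CPM in cortex (2.28 ± 0.30, adjusted p = 0.000809).

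The remaining lists are given beside the shares of all genes, 5.48% higher and 2.51% lower. Of 34 proliferation genes 2 were higher, of 28 stress and unfolded protein response genes 2 were higher and 2 lower, of 20 Notch genes 2 were lower, of 23 cholesterol synthesis genes 1 was lower (9 without the mock libraries), of 13 Sonic hedgehog genes 1 was higher and 1 lower, of 28 neurogenic factors 1 was higher and 1 lower, of 9 classical cadherins 1 was higher, and of 20 genes of the PTB and REST axis 3 were higher and 1 lower. Neither of 2 tested genes of other transmitter types was called.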
